A study of Mus musculus with 14 samples.

Results

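The cytosolic ribosomal protein genes were followed across 14 single-colour arrays of mouse mast cells. Members were all probes whose gene name in the scanner files was Rpl or Rps followed by a number, Rplp0, Rplp1, Rplp2 or Rpsa, with the S6 kinase genes (Rps6k) left out. This gave 84 of 28090 gene names, carried by 145 of 41174 probes, and the probe with the highest mean signal stood for each gene. Of the 84 genes, 77 encode proteins of the ribosome itself and 7 are paralogues or relatives: Rpl3l, Rpl7l1, Rpl22l1, Rpl36al, Rpl39l, Rps27l and Rps19bp1. A filter on dim and unreliable spots left 79 genes to be tested among 16054 in all. Of these, 40 were large subunit genes, 30 small subunit genes, 3 stalk genes and 6 relatives. The remaining 5, Rpl3, Rpl9, Rpl13a, Rps24 and Rps27l, were above background on all 14 arrays but had too few spots left after the scanner software's outlier marks, and were not tested.

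The cells were bone marrow-derived mast cells (BMMCs), immature mast cells grown from mouse marrow in medium with interleukin 3. They came from mice labelled knockout or wild-type for Pla2g3, the gene of group III secreted phospholipase A2, and both genotypes carry the same strain label, which joins C57BL/6 and 129Sv and ends in N3. Knockout cocultured cells filled 3 arrays and wild-type cocultured cells 4, both after 96 h on a layer of Swiss 3T3 cells, a mouse fibroblast line, with 100 ng/ml of stem cell factor. Knockout BMMCs filled 4 arrays and wild-type BMMCs 3, and neither had been cocultured. Cocultured cells were freed with trypsin and replated, and the cells that did not attach again were collected, so fibroblasts could be carried over. The labels do not tie the arrays to separate mice or cultures, so each p-value reflects array-to-array spread that may be technical. Groups are called knockout and wild-type here as their labels have them.

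A cytosolic ribosome joins a small subunit, which reads the messenger RNA, to a large subunit, which forms the peptide bonds, and each subunit is built from ribosomal RNA and a set of proteins needed in equal numbers. Many messenger RNAs of these proteins begin with a run of pyrimidines, the 5′ terminal oligopyrimidine (TOP) tract, through which the mTOR kinase controls their translation, and their transcription is coordinated with that of ribosomal RNA. Mast cells increase protein synthesis when they grow under stem cell factor, and mature mast cells store large amounts of proteases in their granules.

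Levels are log2 of the scanner's processed signal minus the 75th percentile of its array, and a level of 0 marks that percentile. The percentile itself was 69.4, 91.1 and 148 units on knockout cocultured arrays 1 to 3, and 83.3 to 176 units elsewhere. Between 43.0% and 55.9% of probes were well above background on each array, and precision is limited by how many arrays each group had. The Pla2g3 probe read -3.21, -1.78 and -1.97 in knockout cocultured cells, against -4.33, -3.25, -4.14 and -2.22 in wild-type cocultured cells. It read -1.43, -1.31, -1.60 and -1.96 in knockout BMMCs, against -3.75, -4.69 and -2.95 in wild-type BMMCs. Its signal was thus higher on most arrays labelled knockout. The deleted part of the gene is not given in the sources used here, so this probe does not check the labels. The arrays lay on 4 slides, and slide 4, which held knockout BMMC 4, wild-type cocultured 3 and knockout cocultured 3, was scanned on another date. Knockout cocultured 2 had 326 spots marked as outliers, and 59 of the 79 tested genes kept a value there. Fits left out the arrays on which a gene had no value.

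The ribosomal protein genes moved together from array to array, and the 2 highest arrays and the lowest ones were all labelled knockout. Each gene's level was set against its own mean over the arrays, and these deviations were averaged over the tested genes. The average deviation was 0.70, 0.64 and -0.37 in knockout cocultured 1 to 3, and 0.08, -0.09, 0.07 and -0.09 in wild-type cocultured 1 to 4. It was -0.28, 0.01, -0.04 and -0.57 in knockout BMMC 1 to 4, and -0.19, 0.10 and 0.21 in wild-type BMMC 1 to 3. Knockout cocultured 1 and 2 stood above all other arrays, while knockout cocultured 3 lay below all but knockout BMMC 4, so the knockout cocultured group spanned the values of all other arrays but knockout BMMC 4. The group averages were 0.33 ± 0.60 in knockout cocultured cells (SD, n = 3), -0.01 ± 0.10 in wild-type cocultured cells (SD, n = 4), -0.22 ± 0.27 in knockout BMMCs (SD, n = 4) and 0.04 ± 0.21 in wild-type BMMCs (SD, n = 3). These averages differed by less than the SD of the knockout cocultured arrays.

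**Figure D1:**
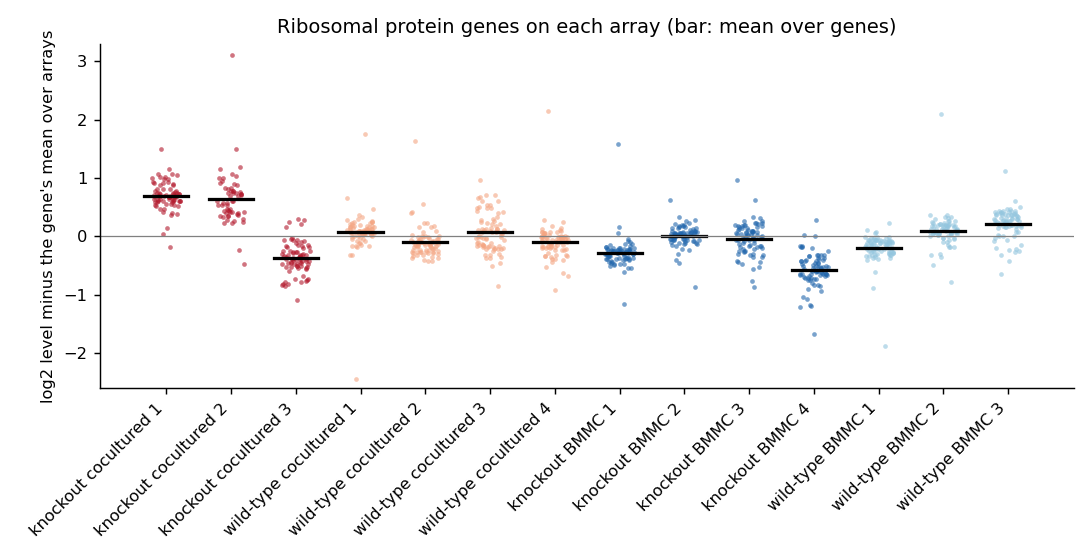
Each point is 1 of the 79 tested ribosomal protein genes on 1 array, the y axis gives its log2 level minus its own mean over the arrays, and the bar is the mean over genes. Knockout cocultured 1 and 2 sit at 0.70 and 0.64, knockout cocultured 3 at -0.37 and knockout BMMC 4 at -0.57.

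Nearly all members took part in this pattern. On knockout cocultured 1, 76 of 77 genes with a value lay above their own mean, and on knockout cocultured 2, 57 of 59 did. On knockout cocultured 3 only 5 of 79 did, and on knockout BMMC 4 only 3 of 79. Knockout cocultured 1 was the highest array for 50 genes and knockout cocultured 2 for 21, whereas knockout BMMC 4 was the lowest for 49 and knockout BMMC 1 for 12. The median correlation between the levels of any 2 members over the 14 arrays was 0.78, and 97.3% of the 3081 pairs were positive. All members on an array share its RNA, labelling and scale, so this figure describes the arrays as much as the genes. The subunits moved alike: on knockout cocultured 1 the large subunit genes averaged 0.74, the small subunit genes 0.68 and the stalk genes 0.51. On knockout BMMC 4 the same classes averaged -0.56, -0.53 and -0.33.

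**Figure D2:**
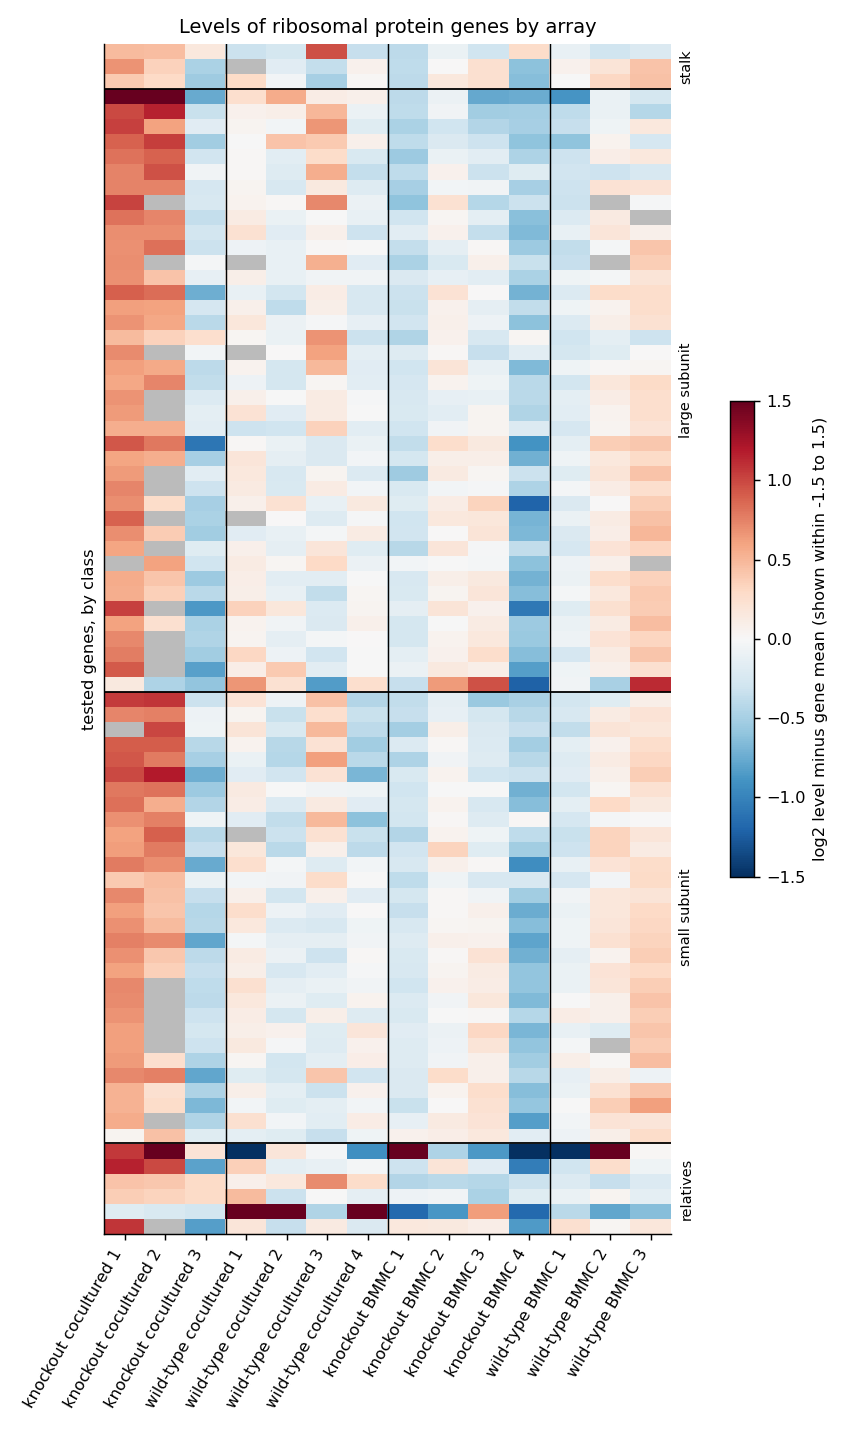
Rows are the 79 tested genes, grouped into stalk, large subunit, small subunit and relatives, columns are the 14 arrays, and colour gives the log2 level minus the gene's mean, shown within -1.5 to 1.5, with grey for a spot left out. The columns of knockout cocultured 1 and 2 are red in nearly every row, and those of knockout cocultured 3 and knockout BMMC 4 are blue.

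Without scaling, the median signal of the members was 16540, 22102 and 17587 units in knockout cocultured 1 to 3, against 15336, 17874, 16841 and 18719 units in knockout BMMC 1 to 4. In wild-type cocultured 1 to 4 it was 16881, 20348, 23138 and 15983 units, against 10868, 16707 and 17616 units in wild-type BMMC 1 to 3. Knockout cocultured 1 and 2, the arrays with the highest scaled levels, had 75th percentiles of 69.4 and 91.1 units, while knockout BMMC 4, the lowest, had 176 units. Several other arrays lay along that order. Wild-type BMMC 3 and 2 had 98.2 and 100 units, with average deviations of 0.21 and 0.10, and knockout BMMC 1 had 131 units, with -0.28. Others departed from it: wild-type BMMC 1 had a percentile of 83.3 units and an average deviation of -0.19. Wild-type cocultured 3 had 148 units, with a deviation of 0.07, while knockout cocultured 3, also with 148 units, lay along the order, with -0.37. Wild-type cocultured 1, 2 and 4 and knockout BMMC 2 and 3 had 109 to 153 units. Their deviations were small, from 0.08 at 109 units to -0.09 at 153 units. The part of the scale in the members' pattern was not tested. Under quantile normalization, which gives every array the same distribution, the average deviation of the members was 0.12, 0.29 and -0.09 in knockout cocultured 1 to 3, against -0.05, 0.02, -0.03 and -0.11 in knockout BMMC 1 to 4. Under normexp background correction knockout cocultured 2 was the lowest array, at -0.66, and it was at 0.50 once spots far below their local background were left out.

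**Figure D3:**
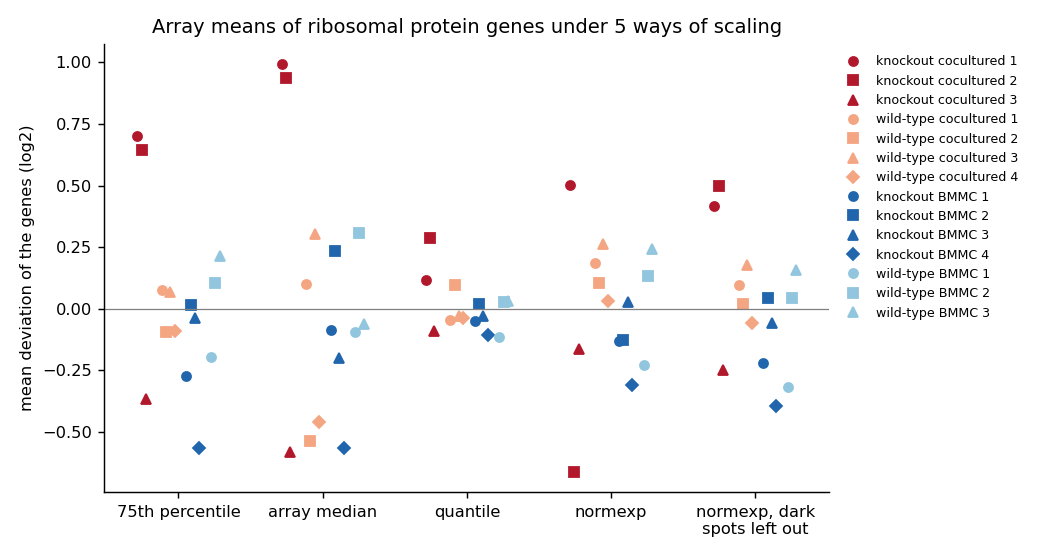
The y axis gives the mean deviation (log2) of the tested ribosomal protein genes on each array, with 1 symbol per array, under 5 ways of scaling or background correction on the x axis. Knockout cocultured 1 and 2 stand at 0.70 and 0.64 with the 75th percentile, at 0.99 and 0.94 with the array median, at 0.12 and 0.29 after quantile normalization, and at 0.50 and -0.66 under normexp.

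With this scaling nearly all members had fitted changes above 0 in coculture of knockout cells, but no subunit gene passed the test. The fitted log2 change of knockout cocultured cells over knockout BMMCs was above 0 for 78 of 79 members, with a median of 0.46, beside a median of 0.07 over all genes tested. This held for the array percentile and the array median as scale, while under quantile normalization 48 of 79 were above 0, with a median of 0.056, and under normexp 49 of 79, with a median of 0.086. With limma and Benjamini-Hochberg adjustment over all 16054 genes, 1 member rose and 0 fell at an adjusted p under 0.05. Over all genes 14.3% were called, 7.78% as higher and 6.52% as lower, so the members' share lay below the background. An unadjusted p under 0.05 was found for 16 members, against 29.3% of all genes. The large subunit genes had a median change of 0.47, the small subunit genes 0.45, the stalk genes 0.37 and the relatives 0.65. In bulk RNA a shift in which cells were harvested and a shift in RNA per cell cannot be told apart. The 5 members whose knockout cocultured arrays all lay above all knockout BMMC arrays were Rpl4, Rpl35, Rps25, Rpl7l1 and Rps19bp1, against 16.1% of all genes. No member lay entirely lower, against 12.0% of all genes.

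The call in knockout cells was Rps19bp1, which encodes a nucleolar protein that binds Rps19 and is not itself part of the ribosome. Its level was 2.99, 2.96 and 2.86 in knockout cocultured cells, against 2.12, 2.16, 2.14 and 2.25 in knockout BMMCs. The groups did not overlap, and the log2 change was 0.77 (SE 0.20, limma adjusted p = 0.0243). In wild-type cells the level was 2.64, 2.72, 3.27 and 2.84 after coculture, against 2.36, 2.21 and 2.36 before it. These groups did not overlap either, but the log2 change of 0.56 (SE 0.20) had a limma adjusted p of 0.0886. The interaction was 0.21 (SE 0.28, limma adjusted p = 0.994), so the responses of the 2 genotypes were not shown to differ. A second probe of Rps19bp1 followed the first with r = 0.83 over the 14 arrays and had a log2 change of 0.47 in knockout cells. The call was lost when any of 5 single arrays was left out, with adjusted p between 0.00841 and 0.0860 over the 14 such fits. The 5 were knockout cocultured 1 and 2 and knockout BMMC 1, 2 and 3. Of 13 other settings 8 kept the call, with adjusted p between 0.00584 and 0.712. The change was 0.15 under normexp background correction and 0.78 with the replicate number as a block, where the limma adjusted p was 0.0755.

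Several large and small subunit genes had changes in knockout cells close to the threshold. Rpl31, a large subunit protein near the mouth of the exit tunnel, was at 4.13, 4.13 and 1.88 in knockout cocultured cells, against 2.24, 2.55, 1.86 and 1.88 in knockout BMMCs. The third array lay among the BMMCs while the other two lay far above them, and the log2 change of 1.25 (SE 0.47) had a limma adjusted p of 0.0941. Rpl35, which also lines the exit tunnel, had the lowest adjusted p of the subunit genes, 0.0553 by limma. Its level was 7.65, 7.23 and 6.46 in knockout cocultured cells, against 6.15, 6.33, 6.19 and 6.12 in knockout BMMCs, without overlap. Rps25, a small subunit protein used by some viral internal ribosome entry sites, was at 8.08, 8.10 and 7.27 in knockout cocultured cells, against 7.0, 7.22, 7.07 and 6.92 in knockout BMMCs. These groups did not overlap, and the log2 change was 0.76 (SE 0.26, limma adjusted p = 0.0693).

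The array knockout cocultured 3 decided how many members were called. Without it, 33 of 79 members rose in coculture of knockout cells and 0 fell, with a median log2 change of 0.86, while 19.6% of all genes were called, 12.2% as higher and 7.31% as lower. Without the 3 arrays of slide 4, 45 members rose and 0 fell, with a median of 0.75, while 29.0% of all genes were called, 17.6% as higher and 11.5% as lower. Rpl31 then had a log2 change of 1.91 (limma adjusted p = 0.00234). The stalk gene Rplp0 had a change of 0.73 (limma adjusted p = 0.0128) without slide 4, and of 0.59 (limma adjusted p = 0.254) without knockout cocultured 3 alone. Slide 4 held 1 array of 3 of the groups, and its scan date and those arrays cannot be told apart. Within single slides, the median change of knockout cocultured over knockout BMMC arrays was 0.95 on slide 1 (75 of 77 members above 0), 0.56 on slide 2 (58 of 59) and 0.18 on slide 4 (68 of 79). The direction was thus the same on each slide that held both groups, with sizes that differed.

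**Figure D4:**
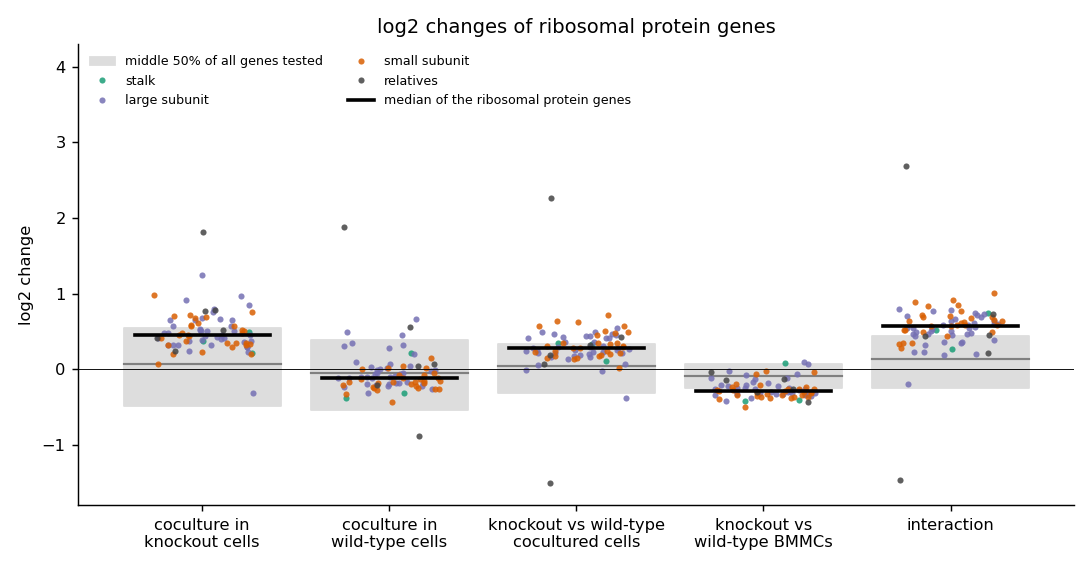
Points are the log2 changes of the 79 tested members in 5 comparisons, coloured by class, with black bars for their median and grey bands for the middle 50% of all genes tested. The medians are 0.46 for coculture in knockout cells, -0.11 for coculture in wild-type cells, 0.29 for knockout over wild-type after coculture, -0.29 before it and 0.57 for the interaction.

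In coculture of wild-type cells most members had small changes on either side of 0. The median log2 change of wild-type cocultured cells over wild-type BMMCs was -0.11, beside -0.06 over all genes, and 23 of 79 members had a change above 0. By limma with Benjamini-Hochberg adjustment 1 member, the dim Rpl3l, was called higher and 0 lower, while 12.9% of all genes were called, 6.01% as higher and 6.86% as lower. An unadjusted p under 0.05 was found for 2 members, against 26.3% of all genes. Large subunit genes had a median of -0.06, small subunit genes -0.17, stalk genes -0.31 and relatives 0.06. Rpl14, Rpl31 and Rps19bp1 lay higher on every wild-type cocultured array than on any wild-type BMMC array, against 10.6% of all genes, and Rps14 lay lower, against 14.9%. Rpl31 was at 2.88, 3.19, 2.75 and 2.71 in wild-type cocultured cells, against 1.74, 2.53 and 2.37 in wild-type BMMCs, a log2 change of 0.67 (SE 0.47, limma adjusted p = 0.411). Rps14, a small subunit protein of the platform, was at 8.96, 8.82, 8.86 and 8.96 in wild-type cocultured cells, against 9.0, 9.37 and 9.62 in wild-type BMMCs, a log2 change of -0.43 (SE 0.30, limma adjusted p = 0.417). Within slides the median of the members was 0.00 on slide 2 and -0.41 on slide 3.

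The member called in wild-type cells was Rpl3l, the paralogue of Rpl3 found mainly in heart and skeletal muscle. Its probe was well above background on only 3 arrays, all of wild-type cocultured cells, so it entered the test through the group where it was high, and its call supports nothing about the members. Its level was -3.82, -3.94, -6.02 and -3.43 in wild-type cocultured cells, against -5.99, -6.35 and -6.21 in wild-type BMMCs. Wild-type cocultured 3 was as low as the BMMCs, and the groups overlapped. The measured mean was -4.30 in wild-type cocultured cells and -6.18 in wild-type BMMCs (limma adjusted p = 0.0439), and no fold is given because the bound set by the lowest signals above background was under 1. In knockout cells the level was -5.76, -5.81 and -5.85 after coculture, against -6.74, -6.45, -4.95 and -6.75 before it, none of them well above background. The adjusted p was between 0.00191 and 0.137 over the 14 fits that each left out 1 array, with the call kept only without knockout BMMC 3, knockout cocultured 3 or wild-type cocultured 3, and the replicate block gave a limma adjusted p of 0.125.

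The probes of Rpl3 and Rpl3l show what separates the paralogues on these arrays. They are printed because Rpl3l is dim beside a very abundant relative. Capitals mark the longest run of bases that both probes hold, 5 of 60. Per the scanner files, the Rpl3 probe lies at chr15:79910252-79910826 on the minus strand of mm9 and the Rpl3l probe at chr17:24872413-24872681 on the plus strand, both over spans longer than the probe itself.
Rpl3: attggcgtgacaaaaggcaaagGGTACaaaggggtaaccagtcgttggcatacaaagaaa
Rpl3l: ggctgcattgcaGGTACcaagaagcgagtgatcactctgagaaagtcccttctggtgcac
Over the 6 pairs of a subunit gene and its paralogue, the longest shared run was 5 or 6 bases. Rpl3 itself had values on 5 arrays only, 6.83 and 7.16 in wild-type cocultured cells and 6.44, 6.70 and 6.72 in knockout BMMCs, and was not tested.

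The other paralogues are the alternative forms through which ribosomes are thought to differ between tissues. Rpl22l1, which can stand in for Rpl22 and is controlled by it, was at 7.05, 6.88 and 5.08 in knockout cocultured cells, against 5.58, 6.09, 5.72 and 4.84 in knockout BMMCs. Its arrays followed the common pattern, with knockout cocultured 3 far below the others, and the log2 change was 0.78 (SE 0.43, limma adjusted p = 0.255). Rpl22, an RNA-binding protein of the large subunit that T cells need for their development, was at 6.55, 6.24 and 5.33 in knockout cocultured cells, against 5.57, 5.86, 6.05 and 5.19 in knockout BMMCs. Its log2 change was 0.38 (SE 0.31, limma adjusted p = 0.464), and the groups of both genes overlapped. A second, dimmer probe of Rpl22 had r = 0.50 to the first and a change of the opposite sign, -0.49. The 2 probes of the paralogues can be compared below, with capitals on the longest run they share, 6 bases, and lie at chr4:151704158-151704217 and chr3:28706197-28706256 on the plus strand of mm9.
Rpl22: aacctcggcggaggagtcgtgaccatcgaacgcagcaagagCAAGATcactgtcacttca
Rpl22l1: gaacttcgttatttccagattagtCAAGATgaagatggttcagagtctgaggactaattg
Both genes correlated with the mean of the other members, with r of 0.90 for Rpl22 and 0.95 for Rpl22l1 over the 14 arrays.

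The remaining relatives differed among themselves. Rpl39l, a paralogue of Rpl39 expressed in mouse testis, was well above background on 6 arrays and read -2.88, -0.83 and -3.74 in knockout cocultured cells, against -6.39, -3.76, -3.98 and -4.86 in wild-type cocultured cells. Its arrays above background were the 3 knockout cocultured ones and 1 of each other group, so the remaining values are bounds and no fold is given. It was the 1 member whose knockout cocultured arrays all read above all wild-type cocultured arrays, against 0.816% of all genes, and it did not pass (limma adjusted p = 0.797). The level read in BMMCs ranged as widely, between -5.62 and -2.35 in knockout and between -5.83 and -1.85 in wild-type cells. Rpl7l1, a paralogue of Rpl7, was at 2.59, 2.55 and 2.51 in knockout cocultured cells, against 2.15, 2.17, 1.75 and 2.04 in knockout BMMCs. These groups did not overlap, and knockout cocultured 3 was close to its partners here, with a log2 change of 0.52 (SE 0.22, limma adjusted p = 0.142). A second, dimmer probe of Rpl7l1 went another way, with r = 0.038 to the first over 14 arrays and a change of 0.049. Rpl36al, a paralogue of Rpl36a, was at 5.81 and 3.91 on the 2 knockout cocultured arrays with a value, against 4.89, 4.88, 4.83 and 3.88 in knockout BMMCs, a log2 change of 0.24 (SE 0.46, limma adjusted p = 0.786). Rps27l, a paralogue of Rps27 known as a p53 target, had a value of 4.77 on 1 knockout cocultured array and lay between 4.91 and 5.48 in knockout BMMCs.

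The stalk genes encode the acidic proteins that recruit translation factors to the large subunit. Rplp0, which anchors the stalk and is often used as a reference gene in quantitative PCR, was at 5.57, 5.55 and 5.25 in knockout cocultured cells, against 4.70, 5.0, 4.80 and 5.37 in knockout BMMCs. In wild-type cells it was at 4.78, 4.83, 6.06 and 4.75 after coculture, against 4.99, 4.79 and 4.88 before it. Wild-type cocultured 3 stood more than 1 unit above the other wild-type arrays, and knockout BMMC 4 was the highest of its group, unlike most members. The log2 change was 0.49 (SE 0.32, limma adjusted p = 0.328) in knockout cells and 0.22 (SE 0.32, limma adjusted p = 0.734) in wild-type cells. Rplp1 followed the common pattern, at 9.24, 8.91 and 8.09 in knockout cocultured cells, against 8.18, 8.58, 8.80 and 7.95 in knockout BMMCs. Rplp2 did likewise, at 8.84, 8.75 and 7.92 in knockout cocultured cells, against 8.06, 8.61, 8.69 and 7.81 in knockout BMMCs. The change was 0.37 (SE 0.31) for Rplp1 and 0.21 (SE 0.31) for Rplp2, with overlap between the groups.

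Rps6, the small subunit protein phosphorylated by the S6 kinases downstream of mTOR, was at 7.13, 7.29 and 6.17 in knockout cocultured cells, against 6.22, 6.84, 6.33 and 5.99 in knockout BMMCs. In wild-type cells it was at 6.68, 6.10, 6.59 and 6.12 after coculture, against 6.19, 6.84 and 6.64 before it. Both pairs of groups overlapped, with changes of 0.52 (SE 0.32, limma adjusted p = 0.304) in knockout and -0.19 (SE 0.32, limma adjusted p = 0.78) in wild-type cells. Rps19, needed for maturation of the small subunit and mutated in human Diamond-Blackfan anaemia, was at 7.81, 7.65 and 6.38 in knockout cocultured cells, against 6.41, 6.83, 6.68 and 6.46 in knockout BMMCs. Its change of 0.68 (SE 0.36) in knockout cells had a limma adjusted p of 0.224. Rpl5 and Rpl11, which form a particle with 5S ribosomal RNA that can bind the p53 regulator Mdm2, had changes in knockout cells of 0.52 (SE 0.26) for Rpl5 and 0.24 (SE 0.38) for Rpl11. Rpl11 had no value on knockout cocultured 2, and a second, dimmer probe had r = -0.20 to the first and a change of 0.018. Rpsa, also known as the laminin receptor precursor, was at 5.69, 5.73 and 4.20 in knockout cocultured cells, against 4.76, 5.25, 5.05 and 4.56 in knockout BMMCs, and its lowest array of all was knockout cocultured 3.

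A few members stood apart from the common pattern. Rpl21, of the large subunit, was the 1 member with a change below 0 in coculture of knockout cells, -0.31 (SE 0.54). It was at 3.38, 2.76 and 2.63 in knockout cocultured cells, against 2.88, 3.86, 4.19 and 2.01 in knockout BMMCs, and its r with the mean of the other members was 0.27. Its probe had the highest GC content of the members' probes, 75%, the next being 55%, and a second, dimmer probe had a change of 0.56. Rps9, a small subunit protein at the decoding side, had a change of 0.06 (SE 0.21) in knockout cells, with 6.48, 6.87 and 6.25 in knockout cocultured cells, against 6.49, 6.53, 6.58 and 6.27 in knockout BMMCs. A second Rps9 probe, with r = 0.26 to the first, had a change of -0.50. The r with the other members was 0.04 for Rpl3l, 0.30 for Rplp0 and 0.42 for both Rpl4 and Rps19bp1, against 0.99 for Rpl19. Rplp0 was read through 1 probe, and probes under Arbp, its older name, were not members by the rule. Across all members the correlation between deviation and probe GC lay between -0.33 and 0.17 on the single arrays.

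**Figure D5:**
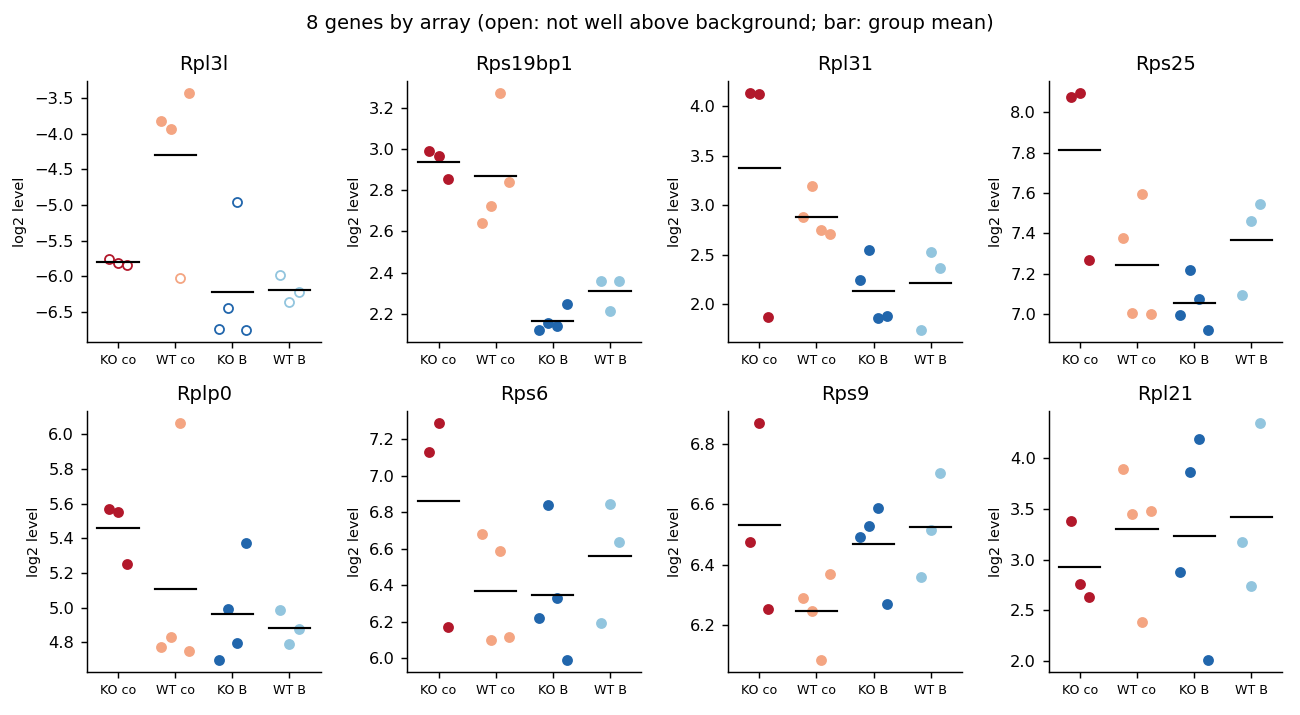
The y axes give the log2 level of 8 members on each array, in knockout cocultured (KO co), wild-type cocultured (WT co), knockout BMMC (KO B) and wild-type BMMC (WT B) cells, with open points where the probe was not well above background and bars for group means. Rps19bp1 lies between 2.86 and 2.99 in knockout cocultured cells and between 2.12 and 2.25 in knockout BMMCs, while Rpl31 has 2 high knockout cocultured arrays and 1 within the BMMC range.

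Knockout and wild-type cells were then compared directly. After coculture, knockout over wild-type had a median change of 0.29 over the members, with 75 of 79 above 0, beside 0.05 over all genes. Under normexp the direction turned, with a median of -0.21 and 16 of 79 above 0; without the spots far below their local background it was 0.11, with 66 above 0. Before coculture it had a median of -0.29, with 3 of 79 above 0, beside -0.09 over all genes. By limma, 0 members and 0% of all genes passed in either comparison; an unadjusted p under 0.05 was found after coculture for 4 members and 3.78% of all genes, and before it for 0 members and 1.07%. The interaction, the change in knockout minus the change in wild-type cells, had a median of 0.57 with 77 of 79 above 0, beside 0.14 over all genes. Under normexp it was -0.041 with 33 of 79 above 0, and without those spots 0.25 with 70 above 0. Again 0 members and 0% of all genes passed, and an unadjusted p under 0.05 was found for 1 member, Rps25, and 0.804% of all genes. Rps25 was singled out after its values were seen, with an interaction of 0.88 (SE 0.37, limma adjusted p = 0.994). Before coculture, Rpl7a and Rps2 lay lower on every knockout array than on any wild-type array, against 3.12% of all genes. Rpl7a, of the large subunit, was at 8.27, 8.36, 8.32 and 8.0 in knockout BMMCs, against 8.41, 8.46 and 8.67 in wild-type BMMCs.

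The differences by genotype depended on slide 4. Without its 3 arrays, 37 members rose and 1 fell in knockout over wild-type cocultured cells, with a median of 0.76, while 26.4% of all genes were called, 16.8% as higher and 9.57% as lower. The interaction called 14 members as higher and 1 as lower, against 7.85% and 3.11% of all genes. In both, the lower one was Rpl3l, whose probe was above background on no knockout array and was tested only through wild-type cocultured arrays, so these calls carry no information on the members. Without knockout cocultured 3 alone, 0 members and 0% of all genes passed in either comparison, with medians of 0.72 and 1.0. Within slide 2 the members' median for knockout over wild-type cocultured cells was 0.55, and within slide 4 it was -0.41, with 5 of 79 above 0. The 2 slides that held both cocultured genotypes thus gave opposite directions. Before coculture, the median was -0.13, -0.09 and -0.26 on slides 1, 2 and 3.

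The start sites of the members were read from RefSeq promoters of the build GRCm38.p6, which held 64 of the 84 genes. A C followed by at least 4 further C or T at the annotated start, the letters of a TOP tract, was found in 13 of the 64 (20.3%), against 3.01% of 27025 genes. The 13 included Rps6, Rps27, Rplp2, Rpl14 and Rpl35. CCGGAAG, the core bound by ETS factors, was found on either strand within 250 bases before to 50 bases after the start in 26 (40.6%), against 9.93% of genes. The members shown carry such letters at or just after the start, with Rpl3l for contrast. Each line gives 10 bases before the start and 20 from it; capitals mark the pyrimidine run for Rps6, Rps27 and Rplp2, the CCGGAAG letters for Rpl31 and Rpl11, and the first base of the transcript for Rpl3l. The windows lie at chr4:86857348-86857377 (minus), chr3:90213629-90213658 (minus), chr7:141447641-141447670 (plus), chr1:39367841-39367870 (plus), chr4:136053374-136053403 (minus) and chr17:24727816-24727845 (plus).
Rps6: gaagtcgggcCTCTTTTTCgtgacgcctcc
Rps27: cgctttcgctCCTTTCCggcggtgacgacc
Rplp2: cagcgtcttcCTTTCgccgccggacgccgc
Rpl31: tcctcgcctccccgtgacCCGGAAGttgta
Rpl11: ccataaggccacggggCCGGAAGtctccct
Rpl3l: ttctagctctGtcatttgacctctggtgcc
The TATA box letters TATAAA were found on either strand in 7 members (10.9%), against 15.7% of genes. Members with and without the letters had similar medians, which were not tested against each other. Median changes in coculture of knockout cells were 0.50 for the 13 tested members with the pyrimidine run and 0.47 for the 47 without it, and in wild-type cells 0.01 and -0.12. For CCGGAAG they were 0.50 for 25 members with it and 0.47 for 35 without it in knockout cells, and -0.11 and -0.16 in wild-type cells. A match describes the letters in this window and no more.

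Some levels depend on which probe is read. Rpl10, a large subunit protein whose gene lies on the X chromosome, was represented by a probe that the scanner files place at chr8:96747278-96747337 on mm9, and a second probe lies at chrX:71518098-71518157. Where the probes overlap, 26 of 29 bases match, and capitals mark the 3 that differ, T33A, C46A and T52A counted from the 5′ end of the first probe.
Rpl10, chromosome 8: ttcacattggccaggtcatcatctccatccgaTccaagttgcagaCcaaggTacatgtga
Rpl10, chromosome X: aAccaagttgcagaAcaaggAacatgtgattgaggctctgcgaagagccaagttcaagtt
The probes correlated with r = 0.95 over the 12 arrays with both values, and their log2 changes in coculture of knockout cells were 0.41 and 0.43. Transcripts of such near-identical copies may not be separated. In all, 39 genes had 50 further probes above background on all 14 arrays, 37 of them with r over 0.5 to the chosen probe. The correlations lay between -0.69 and 0.99, with a median of 0.82.

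Of other translation genes, the mitochondrial ribosomal protein genes lay close to the members on the knockout cocultured arrays. Of 75 mitochondrial ribosomal protein genes tested, 3 rose and 0 fell in coculture of knockout cells, with a median change of 0.40 and 66 above 0, where 7.78% of all genes were called higher and 6.52% lower. They were Mrps6, Mrpl54 and Mrpl35, with Mrps6 at a log2 change of 1.58 (SE 0.30, limma adjusted p = 0.00471). In wild-type cells, where 6.01% of all genes were called higher and 6.86% lower, 1 rose, Mrps6 again, with a change of 1.25 (SE 0.30, limma adjusted p = 0.0153). Their average deviation was 0.51, 0.62 and -0.33 on knockout cocultured 1 to 3, close to that of the cytosolic members. Knockout BMMC 4 was low in both, at -0.31 and at -0.57 in the cytosolic members. Other arrays differed: knockout BMMC 1 was at -0.01, against -0.28 in the cytosolic members, and wild-type cocultured 2 at -0.29, against -0.09. Of 48 ribosome biogenesis genes, 3 rose and 0 fell in knockout cells, a share near the 7.78% of all genes, with a median of 0.50: Ltv1, an export factor of the small subunit, at 1.56 (SE 0.42, limma adjusted p = 0.0284), Gnl3, a nucleolar GTPase, at 1.17 (SE 0.34, limma adjusted p = 0.0398), and Nola2, a protein of H/ACA particles, at 1.33 (SE 0.41, limma adjusted p = 0.0455). In wild-type cells 0 passed, with a median of 0.04, and 2 had an unadjusted limma p under 0.05. Knockout cocultured 3 was not low for this list, whose average deviation was 0.17, 0.37 and 0.47 on the 3 arrays.

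Of 27 translation factors and further TOP genes, 5 rose and 0 fell in knockout cells, against 7.78% and 6.52% of all genes, with a median of 0.50. In wild-type cells 0 rose and 2 fell, against 6.01% and 6.86%, with a median of 0.15. Their average deviation was 0.45, 0.37 and 0.06 on knockout cocultured 1 to 3. Eif2s2, a subunit of the factor that brings the initiator tRNA, had a log2 change of 1.62 (SE 0.41, limma adjusted p = 0.0237) in knockout cells, and Eif3c, of the initiation factor that binds the small subunit, one of 1.26 (SE 0.30, limma adjusted p = 0.0176). The 2 that fell in wild-type cells were Nap1l1, a histone chaperone with a TOP transcript, at -0.98 (SE 0.29, limma adjusted p = 0.0411), and Eif4a2, an RNA helicase of initiation, at -1.05 (SE 0.31, limma adjusted p = 0.0442). Of 28 genes of mTOR, S6 kinase and Myc signalling, 7 rose and 5 fell in knockout cells, against the same 7.78% and 6.52%, and 2 rose and 3 fell in wild-type cells, against 6.01% and 6.86%. Rps6ka3, a kinase that can phosphorylate Rps6, rose in both, by 2.20 (SE 0.34, limma adjusted p = 0.00153) in knockout and 1.97 (SE 0.34, limma adjusted p = 0.00245) in wild-type cells. Gbl, which encodes a partner of mTOR, fell in both. Its log2 change was -1.60 (SE 0.35, limma adjusted p = 0.0110) in knockout and -1.35 (SE 0.35, limma adjusted p = 0.0245) in wild-type cells. Frap1, an older name of the mTOR gene itself, fell in wild-type cells, at -0.74 (SE 0.20, limma adjusted p = 0.0310). Mycn, a transcription factor that drives ribosome synthesis, fell by 4.36 in knockout cells (SE 0.74, limma adjusted p = 0.00255). Mycn also fell in wild-type cells, with a smaller change than in knockout cells. Its interaction was -1.76 (SE 1.05, limma adjusted p = 0.994), so the responses of the 2 genotypes were not shown to differ.

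Markers of other cells were read beside these values. Over all genes, 7.78% were called higher and 6.52% lower in knockout coculture, and 6.01% and 6.86% in wild-type coculture. In the shortest lists a single call says little beside these shares. Of 28 fibroblast markers tested, 14 rose and 0 fell in coculture of knockout cells, with a median log2 change of 2.93, and 21 rose and 0 fell in wild-type cells, with a median of 4.93. Their average deviation was 0.33, 1.03 and 2.34 in knockout cocultured 1 to 3, 0.53 to 4.68 in wild-type cocultured cells, -2.57 to -1.47 in knockout BMMCs and -2.22 to -2.08 in wild-type BMMCs. Col1a1, Col3a1, Dcn and Serpinh1 were well above background on no BMMC array, and the same held for others such as Igfbp7, Fn1 and Pdgfra. Such markers entered the test through the cocultured arrays where they were high. The filter thus favoured their calls, and the median changes rest partly on readings not above background. Among the knockout cocultured arrays the ribosomal protein genes were highest where the fibroblast markers were lowest. Wild-type cocultured 3, the lowest of its group in the fibroblast markers, was at 0.07 in the ribosomal protein genes, within the range of its group. Mast cell markers averaged 0.97, 0.78 and 0.88 in knockout cocultured 1 to 3 and 0.42 to 1.2 in wild-type cocultured cells. Of 14 mast cell markers, 5 rose in knockout and 4 in wild-type coculture, and 0 fell. Their median log2 change was 0.41 in knockout cells, with 12 above 0. In wild-type cells it was -0.23, with 6 above 0 and 8 below. Of 9 macrophage markers, 2 rose in both genotypes, Cd14 and Cd68, and 1 fell in wild-type cells, Fcgr1, at -3.97 (SE 0.80, limma adjusted p = 0.00626). Most of this list lay below 0, with 6 of 9 in knockout cells (median -1.17) and 5 of 9 in wild-type cells (median -0.90). In coculture of both genotypes the basophil marker Mcpt8 rose among 3 basophil and eosinophil markers, Ncr1 rose among 3 lymphocyte markers and H2-Ab1 fell among 5 dendritic cell markers. Ncr1 and the mast cell marker Mrgprb1 were well above background on no BMMC array. They entered the test through the cocultured arrays where they were high, so their calls give no support for a cell type. Of 8 erythroid and megakaryocyte markers, Gp1ba fell in knockout and Klf1 in wild-type cells. The Klf1 probe was well above background on no wild-type array, so its call there compares readings not above background. Of 2 neutrophil markers, 0 passed by limma in either genotype, with 1 at an unadjusted p under 0.05 in wild-type cells. The part of carried-over fibroblasts in the members' levels was not tested.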

How the data were processed

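RNA of 14 mast cell samples, 450 ng each, was hybridised to single-colour Agilent arrays. Per the file headers and the submitters' processing notes, the authors deposited spot intensity values from Agilent Feature Extraction 9.5.1.1, with probe positions on mm9. 
Levels were log2 of the processed signal less that of the 75th percentile of its array. Controls and outlier spots were dropped and repeated spots averaged. A gene was tested through its brightest probe if this was well above background on 3 or more arrays and had at least 2 values per group. The 4 groups were fitted with limma 3.58.1 (R 4.3.3, data.table version 1.17.8), with 5 two-sided contrasts, Benjamini-Hochberg adjustment over 16054 genes and calls at an adjusted p under 0.05, which "rose" and "fell" refer to. The script was tested on simulated data. The depth of an array experiment cannot be read as counts; 43.0% to 55.9% of probes were above background.

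The members and lists were chosen with earlier results of these data known. Members named were Rplp0, Rplp1, Rplp2, Rpsa, Rps6, Rpl5, Rpl11, Rps19, Rpl3, Rpl13a, Rpl22, Rps27 and the relatives, up to 10 called members per comparison, the 3 highest and 3 lowest changes in either coculture comparison or the interaction, and those not tested. From other lists, up to 4 called genes of lowest p were named, or up to 2 where none passed. Rpl4, Rpl7a, Rpl14, Rpl19, Rpl35, Rps2, Rps25, Rpl10 and the genes of promoter matches were named after their values were seen. Some members and genes of these lists are counted but not reported here by name. Marker lists for macrophages, neutrophils, basophils and eosinophils, dendritic cells, lymphocytes and erythroid cells were also read.

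Same-numbered knockout and wild-type BMMC arrays, which also shared a slide, had correlated deviations, with r between 0.20 and 0.50 over genes in 3 pairs. Across coculture the numbers did not pair. Alternatives covered scaling, background correction, the filter on dim probes, the choice of probe, slide and replicate blocks, and left-out arrays.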

Additional observations from a re-analysis of the deposited data

Results flagged for a closer look

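Of 55 groups of 4 arrays examined among the named members, 4 held 1 array far from the other 3, beyond Dixon's 95% critical value; chance gives about 1 in 20. Rpl3l stood at -4.95 on knockout BMMC 3, while its other knockout BMMC arrays lay between -6.75 and -6.45, all below background. Rpl36al stood at 3.88 on knockout BMMC 4, against 4.83 to 4.89 on the others of that group. Rplp0 stood at 6.06 on wild-type cocultured 3, against 4.75 to 4.83 on the others. Rpsa stood at 5.40 on the same array, against 4.69 to 4.79. Knockout BMMC 4 and wild-type cocultured 3 were both on the slide scanned on another date.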

How the results depend on the processing

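For coculture of knockout cells, the 1 called member became 0 with the array median as scale, under normexp, with no filter on dim probes, under the replicate block and among the subunit genes alone (the array median called 8.72% and normexp 5.58% of all genes); it became 2 under the filter by group and under normexp without the spots far below their background, 3 with the mean of all probes and with slide as a random block, and 45 without the 3 arrays of slide 4. For wild-type cells the 1 became 0 under normexp, with no filter, under the filter by group, under the replicate block and among the subunit genes alone. Normexp called 5.47% of all genes there. The share of all genes was not counted under the filter, probe and block settings or the second form of normexp. The members' counts under those settings are therefore not read as results about the members. Without slide 4, 38 members were called for knockout over wild-type after coculture, with a median of 0.76, and 15 for the interaction. Leaving out 1 array at a time gave 0 to 33 calls and medians of 0.24 to 0.86 for knockout coculture, 0 to 1 calls and -0.24 to -0.02 for wild-type coculture, medians of 0.068 to 0.72 after and -0.41 to -0.16 before coculture, and 0.36 to 1.0 for the interaction. The highest count and medians, 33, 0.86, 0.72 and 1.0, came without knockout cocultured 3.

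The median change in knockout coculture was 0.056 under quantile normalization, 0.086 under normexp and 0.95 within slide 1. The median after coculture was -0.21 under normexp and -0.41 within slide 4. The interaction was 0.084 under quantile normalization, -0.041 under normexp and 0.25 under normexp without those spots. Rpl3l in wild-type cells was at -0.12 under both forms of normexp. On knockout cocultured 2, 7 spots lay far below their local background, at -16054.5 units for the lowest, and the 1st percentile of its normexp signal was 326 units with them and 52.5 without; for the other shifts the cause was not tested. Array median scaling moved the median of all genes to 0.31 after coculture and 0.35 for the interaction, and to -0.20 in wild-type coculture. With the replicate block the medians were 0.40 and -0.04 in knockout and wild-type coculture, and -0.21 before coculture, where the numbers paired the arrays and no call changed. The outlier-spot, subunit-only and second normexp settings were chosen after seeing the data. Signal over background limits Rpl3l and Rpl39l.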
